A study of Mus musculus with 6 samples.

Results

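The 10 genes described here code for brakes on MAP kinase signalling: the dual-specificity phosphatase genes Dusp1, Dusp2, Dusp4, Dusp5, Dusp6, Dusp7, Dusp10 and Dusp16, with Spred1 and Spry2. They were taken by symbol from a deposited table of 25751 genes, and all 10 were found and had enough counts to be tested. The libraries are poly(A) RNA-seq of primary mouse myeloid cells of wild-type (WT) genotype, all collected at 24 h: 3 treated with trimethylamine N-oxide (TMAO), a metabolite made from gut bacterial trimethylamine, and 3 untreated controls. The treated columns are named T-BMDM and the control columns Control. Whether these names mark a difference in how the cells of the groups were obtained is not given, so such a difference and the treatment cannot be told apart in any comparison here. The labels give neither a TMAO dose, nor an animal's age, nor whether replicates were separate cultures or animals. P-values therefore reflect differences among replicate libraries only, and these can be technical.

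MAP kinases are switched on by phosphorylation of a threonine and a tyrosine in the same loop, and dual-specificity phosphatases remove both phosphates. The typical members of this family fall into classes: inducible nuclear enzymes (Dusp1, Dusp2, Dusp4, Dusp5), cytoplasmic enzymes that act on ERK (Dusp6, Dusp7), and enzymes that prefer JNK and p38 (Dusp10, Dusp16). Sprouty and Spred proteins act further up, between growth factor receptors and the Ras pathway. Many of these genes are themselves induced by the kinases they restrain, so they form a negative feedback loop, and in mouse macrophages Dusp1 is known for limiting p38 activity and cytokine output after Toll-like receptor stimulation.

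Levels are given as CPM, a gene's counts divided by its library's total after TMM adjustment. In TMAO-treated cells 8 of the 10 transcripts were higher and 2 were lower than in controls. Dusp1 was 8.88-fold higher and Dusp5 6.06-fold higher, while Dusp7 was lower at 0.311 times the control level and Spred1 at 0.690 times. Among all 14626 genes tested, 65.7% passed the same threshold (edgeR's quasi-likelihood test, Benjamini-Hochberg adjusted p under 0.05), 33.0% as higher and 32.7% as lower, so a call by itself sets no gene apart in this comparison. The median log2 fold change of the 10 genes was 1.6, against 0.00501 over all genes tested. A 2-fold rise or more was found in 16.4% of the genes tested, and 7 of the 10 genes (Dusp1, Dusp2, Dusp5, Dusp6, Dusp10, Dusp16 and Spry2) had one. In 9 of the 10 the normalised levels of the groups did not overlap, Dusp4 being the exception, against 71.0% of the genes tested. The 10 genes were chosen with earlier results of these data known. These comparisons with all genes therefore describe the 10 and do not test whether the family stands out.

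**Figure D1:**
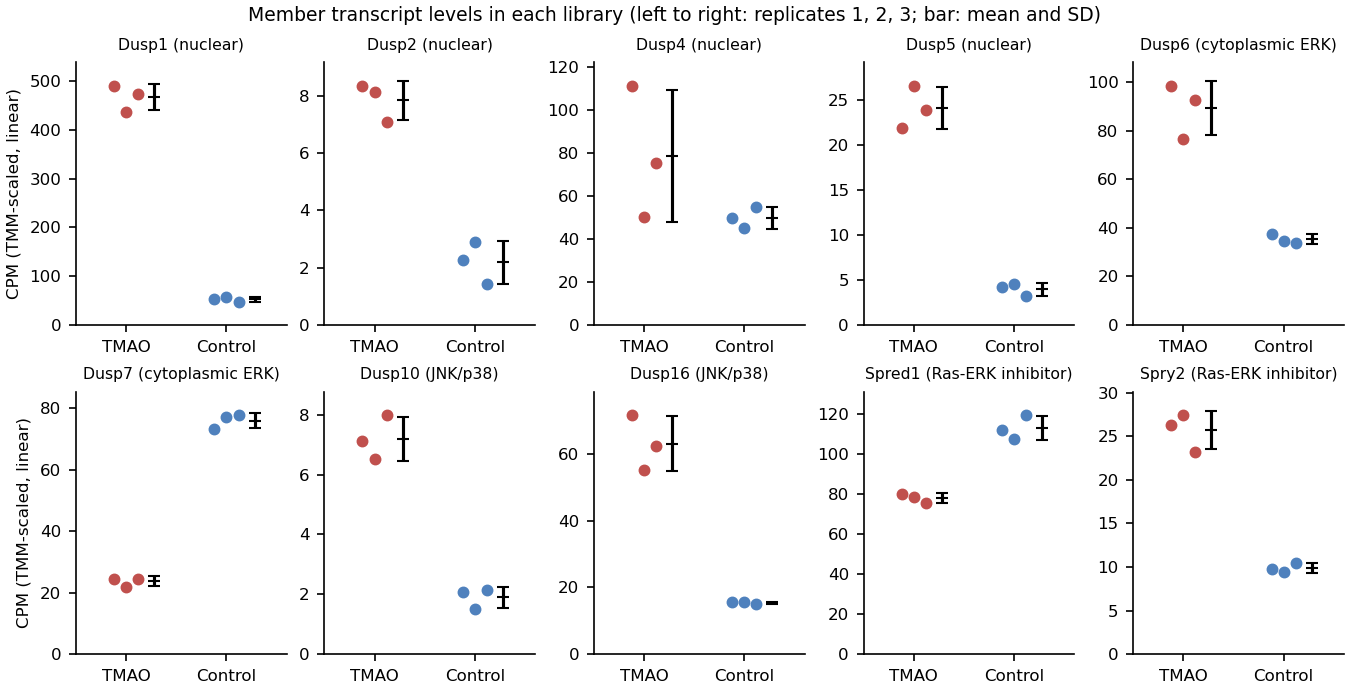
Normalised level of each of the 10 transcripts (CPM, linear axis from 0) in the 3 TMAO and the 3 Control libraries. Points are libraries, and the bar beside them is the mean ± SD (n = 3). Dusp1 lies between 437 and 489.7 CPM with TMAO and between 47.2 and 57.7 CPM in controls, Dusp7 and Spred1 are lower with TMAO, and the groups overlap for Dusp4.

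For 9 of the 10 genes (all but Dusp4) RefSeq promoter windows were at hand, on build GRCm38.p6, reaching 250 bases before and 50 after the transcript start. They were searched on both strands for the cyclic AMP response element TGACGTCA, the AP-1 site TGANTCA, the EGR site GCGNGGGCG, and the CArG box and NF-kB site by name. Matches were found in 4 of the 9 windows, and no 2 matches overlapped. The stretches that hold them, from position -170 to -31 where -1 is the base just before the start, are shown for comparison of the matched letters. The windows of Dusp6, Dusp10 and Spry2, which also rose, held no match, nor did those of Dusp7 and Spred1, which fell. Capitals mark the match.

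Dusp1: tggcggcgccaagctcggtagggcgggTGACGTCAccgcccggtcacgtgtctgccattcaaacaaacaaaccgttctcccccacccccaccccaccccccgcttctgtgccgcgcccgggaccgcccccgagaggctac
Dusp5: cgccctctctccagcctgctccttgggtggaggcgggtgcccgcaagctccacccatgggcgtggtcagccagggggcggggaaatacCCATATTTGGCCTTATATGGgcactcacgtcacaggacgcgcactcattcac
Dusp2: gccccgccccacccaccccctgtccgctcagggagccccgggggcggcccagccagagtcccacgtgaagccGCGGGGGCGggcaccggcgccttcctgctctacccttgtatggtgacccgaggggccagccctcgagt
Dusp16: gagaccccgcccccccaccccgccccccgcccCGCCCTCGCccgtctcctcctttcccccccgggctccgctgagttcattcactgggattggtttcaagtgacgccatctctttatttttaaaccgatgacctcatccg

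The Dusp1 stretch is chr17:26508503-26508642 on the minus strand, and its cyclic AMP response element starts at position -143. The Dusp5 stretch, chr19:53528975-53529114 on the plus strand, holds 2 CArG boxes side by side, the first of them starting at position -82. CArG boxes are the sequence bound by serum response factor, which drives many immediate early genes. The Dusp2 stretch (chr2:127335989-127336128, plus strand) and the Dusp16 stretch (chr6:134792659-134792798, minus strand, with the match on the other strand) each hold 1 EGR site. Over 32544 promoter windows of the same length, 1.80% held the cyclic AMP response element, 7.79% the AP-1 site, 5.60% the EGR site, 1.64% a CArG box and 8.49% an NF-kB site. These matches describe letters in the reference, and binding of any factor was not measured.

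The inducible nuclear phosphatases were all called higher, with Dusp1 far above the rest. Dusp1 (ENSMUSG00000024190), which acts on p38, JNK and ERK, had 489.7, 437 and 474 CPM in the TMAO libraries, against 52.7, 57.7 and 47.2 CPM in the control libraries. Every TMAO library was more than 7 times above every control. Its means were 467 ± 27.1 CPM with TMAO and 52.6 ± 5.26 CPM in controls (SD, n = 3 each), a log2 fold change of 3.15 (SE 0.10, edgeR adjusted p = 7.97e-09), and 2.60% of all genes tested had a higher log2 fold change. Dusp5 (ENSMUSG00000034765), which is specific for ERK and holds it in the nucleus, had 21.9, 26.5 and 23.8 CPM with TMAO, against 4.17, 4.57 and 3.17 CPM in controls. The groups were well apart, with a log2 fold change of 2.60 (SE 0.16, edgeR adjusted p = 3.68e-07).

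Dusp2 (ENSMUSG00000027368), a phosphatase found mainly in blood cells, was scarce but clearly higher. It had 8.33, 8.12 and 7.07 CPM with TMAO and 2.26, 2.90 and 1.41 CPM in controls, resting on 896 counts in the TMAO libraries together and 266 in the controls. Its log2 fold change was 1.84 (SE 0.23, edgeR adjusted p = 5.85e-05).

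Dusp4 (ENSMUSG00000031530), which acts on ERK and JNK, gave the least certain call. It had 110.9, 49.9 and 75.1 CPM in TMAO replicates 1, 2 and 3, against 49.7, 44.8 and 54.8 CPM in controls, so TMAO replicate 2 sat inside the control range. The log2 fold change was 0.66 (SE 0.23, edgeR adjusted p = 0.026). Without TMAO replicate 1, the highest library, it was 0.33 and not called (edgeR adjusted p = 0.0748), and without TMAO replicate 2 it was 0.90 (edgeR adjusted p = 0.000528). With 1 library fewer but a log2 fold change near the full value, the call was also lost without TMAO replicate 3 (0.69, edgeR adjusted p = 0.0536), Control replicate 1 (0.65, edgeR adjusted p = 0.0684) or Control replicate 2 (0.59, edgeR adjusted p = 0.0716). It was lost as well with the trend on GC content removed (0.46, edgeR adjusted p = 0.12), and over all alternatives the adjusted p ran from 1.07e-07 to 0.343. The highest TMAO library was 2.22 times the lowest, and 0.828% of the 8336 genes averaging 10 CPM or more were spread more widely.

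The cytoplasmic phosphatases of ERK went in opposite directions. Dusp6 (ENSMUSG00000019960), a phosphatase specific for ERK and a common readout of its activity, had 98.4, 76.8 and 92.8 CPM with TMAO, against 37.6, 34.6 and 33.8 CPM in controls. All TMAO libraries were at least 2 times above all controls, with a log2 fold change of 1.34 (SE 0.11, edgeR adjusted p = 2.98e-06). Dusp7 (ENSMUSG00000053716), its close relative, had 24.6, 21.7 and 24.6 CPM with TMAO, against 73.3, 77.1 and 77.7 CPM in controls. It fell in all 3 TMAO libraries, with a log2 fold change of -1.68 (SE 0.09, edgeR adjusted p = 2.18e-07), and 5.43% of all genes tested had a lower one. Under all 16 alternatives Dusp6 was called higher, at 1.26 to 1.44, and Dusp7 lower, at -1.91 to -1.62.

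Both phosphatases of JNK and p38 rose. Dusp16 (ENSMUSG00000030203), which moves between nucleus and cytoplasm and prefers JNK, had 71.6, 55.2 and 62.5 CPM with TMAO, against 15.5, 15.5 and 14.9 CPM in controls, a log2 fold change of 2.04 (SE 0.11, edgeR adjusted p = 2.18e-07). Dusp10 (ENSMUSG00000039384), which acts on JNK and p38, had 7.11, 6.52 and 7.98 CPM with TMAO, against 2.08, 1.5 and 2.13 CPM in controls. It was the scarcest of the 10 transcripts, and its log2 fold change was 1.92 (SE 0.18, edgeR adjusted p = 8.55e-06).

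The Ras-ERK inhibitors also split. Spry2 (ENSMUSG00000022114), which restrains signalling from growth factor receptors to Ras, had 26.3, 27.4 and 23.2 CPM with TMAO, against 9.78, 9.42 and 10.5 CPM in controls (log2 fold change 1.37, SE 0.11, edgeR adjusted p = 2.94e-06). Spred1 (ENSMUSG00000027351), which brings the Ras inhibitor neurofibromin to the membrane, had 80.0, 78.3 and 75.3 CPM with TMAO, against 112, 107 and 119 CPM in controls. The groups did not overlap, and the log2 fold change was -0.54 (SE 0.08, edgeR adjusted p = 0.00024). The longest Spred1 transcript spans 6016 bases, and genes in the longest 20% (4927 bases or more) had a median log2 fold change of -0.53, those in the shortest 20% one of 0.49. Dusp16, at 5104 bases, is also among the longest 20% and was 4.12-fold higher. With the length trend removed the log2 fold change of Spred1 was -0.08 and no longer called (edgeR adjusted p = 0.352; range over the alternatives 3.27e-08 to 0.732), whereas with the GC trend removed it was -0.23 and called (edgeR adjusted p = 0.0146).

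Levels were compared between genes per length, as CPM divided by the kilobases of each gene's longest annotated transcript. In TMAO libraries Dusp1 led at 202 ± 11.7 CPM per kb, followed by Dusp6 at 31.9 ± 4.02 and Dusp4 at 28.7 ± 11.2, which overlapped each other. Spred1, Dusp16 and Spry2 came next at 12.9, 12.4 and 12.3 CPM per kb, each overlapping its neighbour, and then Dusp5 (9.73), Dusp7 (7.37), Dusp2 (4.85) and Dusp10 (2.58), with no overlap between neighbours. In control libraries the order was led by Dusp7 at 23.7 ± 0.75 CPM per kb and Dusp1 at 22.7 ± 2.27, which overlapped. Spred1 (18.8) and Dusp4 (18.2) followed, also overlapping, then Dusp6 (12.6), Spry2 (4.75), Dusp16 (3.0), Dusp5 (1.61), Dusp2 (1.35) and Dusp10 (0.682), where only Dusp5 and Dusp2 overlapped. Dusp7 thus stood in the eighth place with TMAO and in the first in controls.

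Summed over the 8 phosphatases, the per-length level was 299 ± 27.8 CPM per kb with TMAO and 83.8 ± 1.19 in controls, 3.57 times as high. The nuclear class held most of the difference, at 245 ± 21.7 and 43.8 ± 1.19 CPM per kb. Within that class most of it was Dusp1, at 202 ± 11.7 and 22.7 ± 2.27 CPM per kb. The JNK and p38 class was at 14.9 ± 1.72 with TMAO and 3.68 ± 0.105 in controls, and the cytoplasmic ERK class, in which Dusp6 was higher and Dusp7 lower, was at 39.3 ± 4.53 and 36.3 ± 0.0462 CPM per kb. The ranges of this last class overlapped, with 34.2 CPM per kb in TMAO replicate 2 and 36.3 to 36.4 in the controls.

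**Figure D2:**
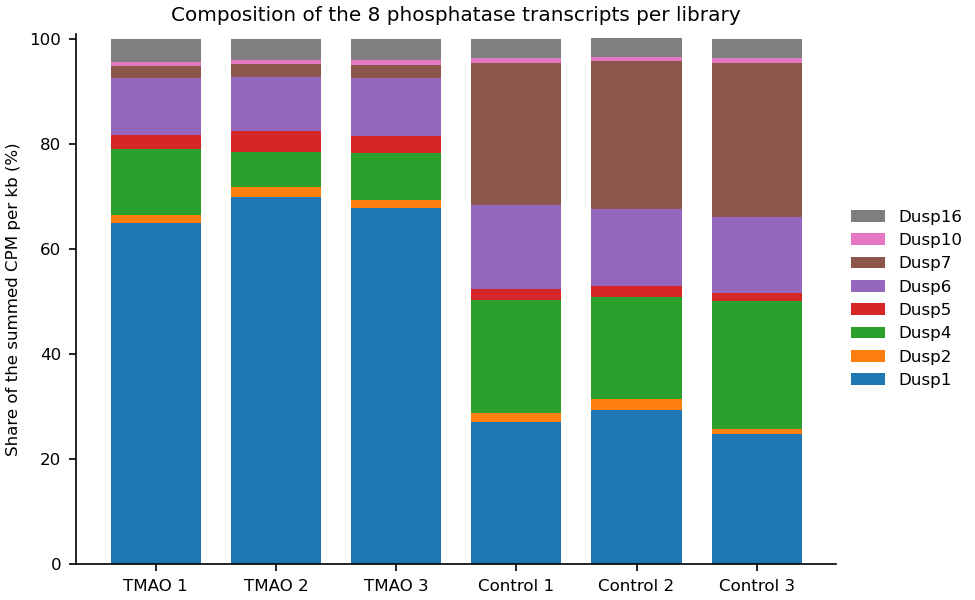
Share of each phosphatase transcript in the summed per-length level (CPM per kb, in percent) of the 8 phosphatases, in each TMAO and Control library. Dusp1 makes up 65.0% to 69.9% with TMAO and 24.7% to 29.4% in controls, and Dusp7 2.36% to 2.54% with TMAO and 27.1% to 29.3% in controls.

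The make-up of the phosphatase pool differed accordingly. Dusp1 accounted for 67.6% ± 2.45 of the summed per-length level with TMAO and 27.1% ± 2.34 in controls, and Dusp7 for 2.47% ± 0.0966 and 28.2% ± 1.09. Dusp4 had a share of 9.41% ± 2.86 with TMAO and 21.7% ± 2.50 in controls although its own level was not lower, and Dusp6 had 10.6% ± 0.433 and 15.1% ± 0.818. The shares of Dusp2, at 1.63% with TMAO and 1.61% in controls, Dusp10, at 0.864% and 0.815%, and Dusp16, at 4.12% and 3.58%, differed by less than 1 percentage point. The share of Dusp5 was 3.29% ± 0.63 with TMAO and 1.91% ± 0.321 in controls. Shares sum to a whole, so a larger Dusp1 share lowers the summed share of the other 7 by construction, and among these the mean shares of Dusp4, Dusp6 and Dusp7 were lower.

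The rest of the pathway was followed through gene lists of the same and neighbouring functions. The 2 remaining typical phosphatases are Dusp8, which acts on JNK and p38, and Dusp9, a cytoplasmic ERK phosphatase. Dusp8 was 20.8-fold higher, at 8.50, 8.39 and 8.40 CPM with TMAO, against 0.232, 0.652 and 0.315 CPM in controls (log2 fold change 4.38, SE 0.28, edgeR adjusted p = 5.81e-07). Its control level rests on 49 counts over the 3 libraries. Dusp9 had 1.94, 1.57 and 2.48 CPM with TMAO, against 2.88, 2.92 and 2.71 CPM in controls, and missed the threshold (log2 fold change -0.51, edgeR adjusted p = 0.0602). It was called lower with the length trend or the GC trend removed or without TMAO replicate 3, over a range of adjusted p of 0.00998 to 0.633.

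Atypical dual-specificity phosphatases, which lack the kinase-binding domain, showed no common direction: of 11 tested among 15 listed, 5 were higher, 4 lower and 2 not called, with a median log2 fold change of 0.11. Dusp14 was 15.9-fold higher from a low base (2.01 ± 0.421 CPM with TMAO, 0.124 ± 0.0247 CPM in controls) and Dusp13 and Dusp23 had log2 fold changes of 2.19 and 1.30. Styx, a pseudophosphatase that binds ERK, fell to 2.39 ± 0.667 CPM with TMAO, against 7.94 ± 0.731 CPM in controls (log2 fold change -1.73, edgeR adjusted p = 3.46e-05). Removing the length trend brought this to -0.87, still called (edgeR adjusted p = 0.000662). Of the other Sprouty and Spred genes, Spry1 was higher at 1.64 ± 0.624 CPM with TMAO and 0.235 ± 0.199 CPM in controls (log2 fold change 2.8, edgeR adjusted p = 0.00103; 3.71 without Control replicate 1), and Spred3 was lower at 5.15 ± 0.293 and 7.57 ± 0.455 CPM (edgeR adjusted p = 0.004). Spred2 was at 26.0 ± 1.32 CPM with TMAO and 22 ± 1.16 CPM in controls and narrowly missed the threshold (edgeR adjusted p = 0.0514), which it passed as higher in 5 of 16 alternatives, among them DESeq2 and limma-voom. Spry4 had 21 counts in the TMAO libraries together and 8 in the controls, too few to test, and Spry3 was not analysed here.

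**Figure D3:**
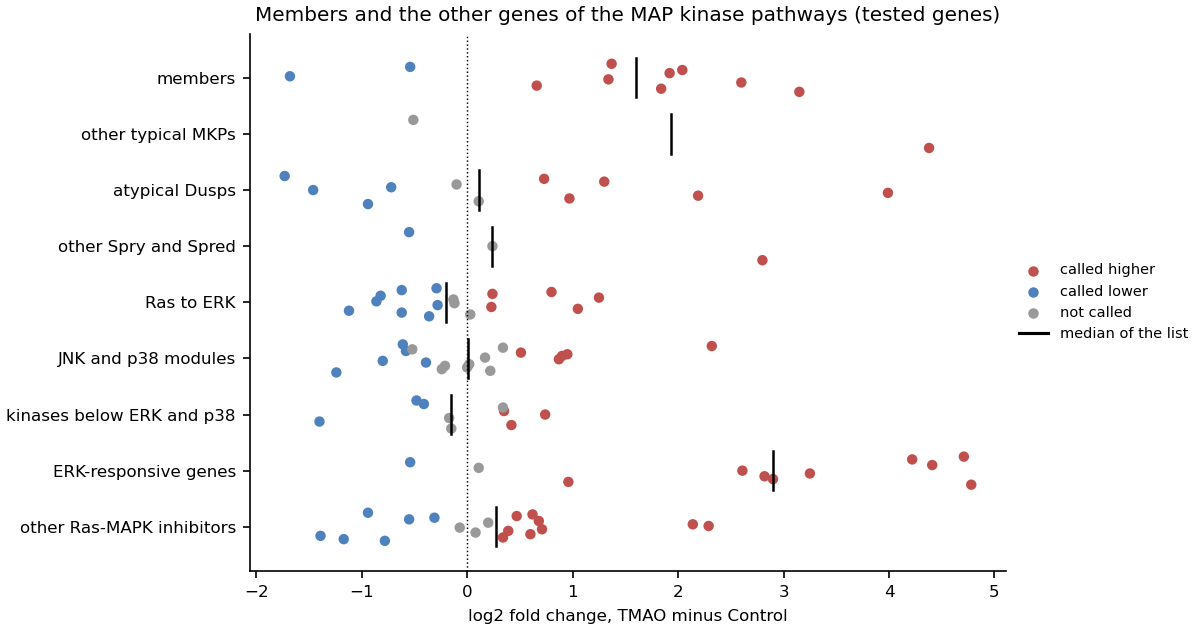
Log2 fold change (TMAO minus Control) of each tested gene, by list, for the 10 members and the other genes of the MAP kinase pathways. Each point is a gene, coloured by its call, and the black bar is the median of the list. The members (median 1.6) and the ERK-responsive genes (median 2.9) lie mostly to the right of 0, and the kinase lists have medians between -0.20 and 0.01.

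Genes of the kinase cascades themselves changed in both directions. In the Ras to ERK list 5 of 16 genes were higher and 8 lower, with a median log2 fold change of -0.20. Map3k8, the kinase that links Toll-like receptors to ERK, and Sos2, a Ras activator, had log2 fold changes of -0.82 and -1.12, and the scaffold gene Ksr1 had 1.25, all called.

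In the JNK and p38 list 5 of 18 were higher and 5 lower, with a median of 0.01. Mapk14, which codes for p38 alpha, was lower at 118 ± 7.68 CPM with TMAO, against 180 ± 0.701 CPM in controls (log2 fold change -0.61, edgeR adjusted p = 9.96e-05). The kinases just above p38 and JNK, Map2k3 and Map2k7, were higher with log2 fold changes of 0.87 and 0.95, and Map3k1 was lower at -1.24. Among the JNK and p38 genes named after their values were seen, Mapk8 had a log2 fold change of 0.51 and Mapk9 of -0.58, both called, and the scarce Mapk13 was 5.0-fold higher at 1.22 ± 0.406 CPM with TMAO and 0.244 ± 0.235 CPM in controls (log2 fold change 2.32, edgeR adjusted p = 0.00441; 3.44 without Control replicate 1). Among 9 tested kinases activated by ERK or p38, 3 were higher and 3 lower, and with the GC trend removed 1 was higher and 4 lower. Mapkapk2, the p38 effector that stabilises cytokine transcripts, had a log2 fold change of 0.74, Rps6ka3 of -1.40, Mknk1 of -0.41 and Mknk2 of -0.48. With the length trend removed, 8 of the JNK and p38 list were higher and 3 lower, and in the Ras to ERK list 4 were higher and 6 lower. Without TMAO replicate 3, or without any 1 of the control replicates, 3 of the Ras to ERK list were higher and 7 lower. The direction of each kinase named here was the same in every alternative that tested it, and Mapk13 was left out by the filter of 1 CPM in 3 libraries. In the test against a fold of 1.5, Mapk8, Mapk9, Mapk14, Mknk1 and Mknk2 lost their call.

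Of 11 tested genes listed as following ERK activity, 9 were higher and 1 lower (Ccnd1, named after its value was seen). Their median log2 fold change was 2.9, the value of Fosl1. Of all genes tested, 33.0% were higher and 32.7% lower, and the list was chosen with earlier results of these data known. Among the 9, Fosl1, Epha2 and Epha4, named after their values were seen, had only 22, 15 and 15 counts in the controls together. Ccnd1 had a log2 fold change of -0.54 (edgeR adjusted p = 0.0337) and lost its call in 5 of 16 alternatives: against a fold of 1.5 (edgeR adjusted p = 0.583) and without TMAO replicate 2 (0.0653), TMAO replicate 3 (0.0961), Control replicate 1 (0.094) or Control replicate 3 (0.0637). Egr1, a zinc finger immediate early gene, had 213, 167 and 193 CPM with TMAO, against 7.87, 6.65 and 6.30 CPM in controls (log2 fold change 4.78, edgeR adjusted p = 4.93e-09). Ier3, Ier2 and Myc had log2 fold changes of 3.25, 2.82 and 2.61. Etv5, the exception named after its value was seen, is a classical partner of Dusp6 and Spry2 among ERK-induced genes and missed the threshold (log2 fold change 0.11, edgeR adjusted p = 0.403). Protein phosphorylation was not measured, so kinase activity was not observed here.

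Other inhibitors of Ras and MAP kinase signalling were split, with 9 of 18 tested higher and 6 lower and a median log2 fold change of 0.27. Errfi1, an inhibitor of the EGF receptor family, was higher at 59.9 ± 3.97 CPM with TMAO and 12.2 ± 0.524 CPM in controls, and Trib1, a pseudokinase that directs protein breakdown, at 78.3 ± 2.93 and 17.8 ± 1.12 CPM. Rasa3 and Rasa1, which switch Ras off, were lower with log2 fold changes of -1.39 and -1.17.

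Other cells or states moved with these groups, and their part in the results on the 10 genes was not tested. In bulk RNA, fewer cells of a type and less RNA per cell cannot be told apart. Library totals ran from 37759007 to 41735109 counts. Of 12 macrophage markers 4 were higher, by at most 1.69-fold (C1qa), and 6 were lower, and in edgeR's test against a fold of 1.5 the higher calls were lost and 5 were lower. Mertk, a receptor for the uptake of dying cells, was at 16.3 ± 3.67 CPM with TMAO and 161.9 ± 15.8 CPM in controls, 0.101 times the control level, and Fcgr1, an Fc receptor gene, at 59.9 ± 0.91 and 251.3 ± 27.5 CPM, 0.239 times. Lyz2, a lysozyme gene of macrophages and other myeloid cells, was at 32893 to 41891 CPM with TMAO and 35452 to 39706 CPM in controls and was not called. Without Control replicate 2, 2 of these markers were higher and 6 lower. The summed level of the list was 39610 to 48460 CPM with TMAO and 44262 to 48981 CPM in controls, most of it Lyz2. Neutrophil and granulocyte precursor markers were higher in 15 of 17 cases and lower in 1, and together held 4555 to 5815 CPM with TMAO and 474 to 516 CPM in controls. Most of the control sum was Mmp8 (mean 232 CPM, not called) and Csf3r (mean 167 CPM, the marker called lower). Monocyte markers were higher in 9 of 10 cases and lower in 1, at 1121 to 1184 and 234 to 296 CPM, and all 8 mitosis markers were higher, at 297 to 346 and 44.6 to 47.8 CPM.

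Of the remaining lists, 6 of 8 B cell markers were higher (41.3 to 44.0 CPM in sum with TMAO, 18.0 to 20.4 CPM in controls, Pax5 at 0 in controls). In the erythroid and megakaryocyte list of 8, which summed to 351.9 to 535.6 CPM with TMAO and 43.2 to 65.1 CPM in controls, the 4 tested genes are megakaryocyte and platelet genes (Pf4, Itga2b, Gp9, Ppbp), and all 4 were higher. The erythroid genes were below the count filter, with 16 Hba-a1 counts in the TMAO libraries together and 42 in the controls, and 2 and 18 Hbb-bt counts. Also higher were all 4 tested of 8 mast cell, eosinophil and basophil markers (20.9 to 24.2 and 1.07 to 2.03 CPM, Mcpt8 at 0 in controls). Dendritic cell markers were higher in 6 of 8 tested and lower in 1, Itgax (76.5 to 81.9 and 61.0 to 64.5 CPM in sum). Siglech and Cd209a were at 0 in controls. Cd209a was below the count filter, and its 8 counts with TMAO were all in replicate 1. Stromal and endothelial markers were higher in 2 of 6 tested (25 to 32.6 and 10.6 to 12.5 CPM). The 2 were Kdr (20.4 ± 4.29 CPM with TMAO, 6.61 ± 1.2 CPM in controls) and Pecam1 (4.25 ± 0.332 and 1.21 ± 0.229 CPM), and 4 were not called. Of the T and NK markers 2 of 8 could be tested, Nkg7 (higher) and Cd4 (lower). The list summed to 3.82 to 5.53 CPM with TMAO and 10.9 to 13 CPM in controls. Most of the control sum was Cd4, at 11.6 ± 1.06 CPM. Cd3e was at 0 with TMAO, and Cd3d, Cd3g, Nkg7 and Ncr1 were at 0 in controls.

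**Figure D4:**
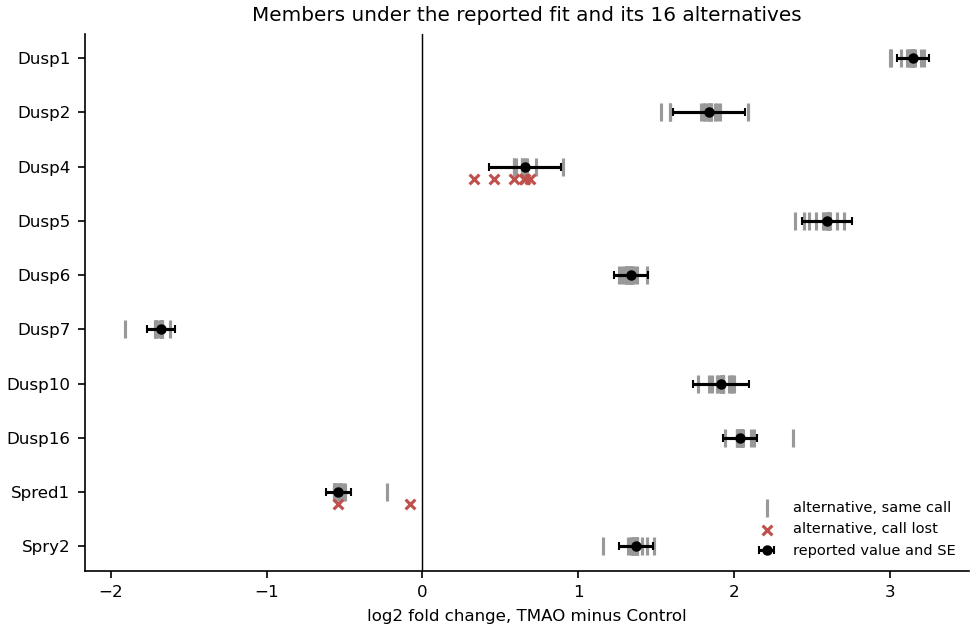
Log2 fold change (TMAO minus Control) of the 10 transcripts. Black points are the reported values with their SE, grey ticks are alternatives with the same call, and red crosses are alternatives in which the call was lost. Dusp4 lost its call in 6 of 16 alternatives and Spred1 in 2 of 16, and no transcript changed direction.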

How the data were processed

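The deposited data are whole-number read counts by Ensembl gene ID for 6 libraries, not normalized by the authors. The submitters' processing notes name build GRCm39. Aligner, counter, annotation and strand setting are not given in the sources, so reads of overlapping or antisense genes cannot be told apart. Sequencers from 2 makers appear in the labels' protocol with no assignment to libraries, and a platform difference between groups cannot be told apart from the treatment. Groups and replicate numbers came from sample titles, and columns were matched by sample descriptions. Symbols, matched by Ensembl ID for 25386 of 25751 genes, and transcript lengths came from the GENCODE annotation of GRCm38, and promoter sequences from RefSeq (GRCm38.p6).

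From the counts, edgeR 4.0.16 (R 4.3.3) tested TMAO against Control over all 14626 genes kept by filterByExpr (minimum count 10), with TMM factors, no covariates and Benjamini-Hochberg adjustment at 0.05. CPM values are TMM-scaled, errors are the SD of 3 replicates, and each SE is the log2 fold change divided by the square root of F. Library totals limit precision only for scarce genes. No pair of libraries in a group agreed within sampling noise (chi-square per degree of freedom 13.9 to 72.1). Alternatives were DESeq2 1.42.0, limma-voom (limma 3.58.1), other scalings and filters, a null of a 1.5-fold change, blocking on replicate number, length or GC trends removed by loess offsets, and each library left out. The steps were tested on simulated data.

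The members and gene lists were chosen with earlier results of these data known. Named genes are all 10 members, every gene of lists of up to 5, the 4 with the smallest p of each longer list, and for cell types those with the smallest p or highest level; not every one of these is printed, and some items are not reported here. Exceptions in the pathway lists are marked as named after their values were seen. Some cell type markers outside this rule are printed without that mark. They are C1qa, Mmp8, Csf3r, Gp9, Hba-a1, Hbb-bt, Pax5, Mcpt8, Siglech, Cd209a, Cd3d, Cd3e, Cd3g and Ncr1.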

Additional observations from a re-analysis of the deposited data

How the results depend on the processing

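Over 16 alternatives, 8 of the 10 genes kept their direction and call throughout, and none of the 10 reversed. Against a fold of 1.5, 2630 genes were called higher and 2554 lower, in place of 4830 and 4778, and 7 and 1 of the 10 genes, with Dusp4 and Spred1 lost; a stricter null gives fewer calls by construction. With the length trend removed, 1 of the 10 was called lower (Dusp7), and the cause of the change in Spred1 was not tested. Leaving out each library in turn called 7 or 8 of the 10 higher and 2 lower. Over all genes these fits called 4392 to 4955 higher and 4225 to 4976 lower. Whether shared replicate numbers pair the libraries is not given in the labels, and correlations among so few libraries cannot decide it. Same-numbered deviations correlated at 0.0321, 0.133 and -0.0672, and TMAO replicate 1 correlated best with Control replicate 3 (0.159). With the replicate block 4887 genes were called higher and 4836 lower, and 8 and 2 of the 10. The median log2 fold change of all genes ran from -0.023 to 0.049 over the settings. Depth limits the low genes most, Dusp10 with 231 and Dusp2 with 266 counts in the controls.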

Other observations

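TMAO replicate 2 was the lowest of the treated libraries for 6 of the 10 members, Dusp4 among them. The share of all genes for which it was the lowest was not counted, so the 6 cannot be set against a background. Over the 8336 genes averaging 10 CPM or more, the highest library was a median of 1.2 times the lowest with TMAO and 1.14 times in controls. Whether a property of that library lies behind these values was not tested.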
